A study of Mus musculus with 17 samples.

Results

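The collagen genes were taken as all protein-coding rows of the deposited table whose symbol has the form Col, a number, the letter a and a number, and 44 such genes were found among 18908 protein-coding genes and 35285 genes in all. Each symbol belonged to 1 gene. The table held 17 RNA-seq libraries, each from the cochlear RNA of 1 male C57BL/6J mouse, a wild-type strain that the study obtained at 8 weeks of age, collected on the second day after noise. The 3 mice of the control group received intraperitoneal saline and no noise, the 7 mice of the NE group were exposed to noise of 8 to 16 kHz at 100 dB for 2 h, and the 7 mice of the brimonidine group had the same exposure and injections of brimonidine at 1 mg/kg, an agonist of the α2-adrenergic receptor, on the day before, on the day of and on the day after the noise. All 3 groups share the strain background, which the study describes as carrying a variant of Cdh23 linked to early age-related hearing loss. The values are FPKM, the fragments counted on a gene scaled to its exon length and to the total of its library.

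Collagens are secreted or membrane-bound proteins in which 3 chains wind into a triple helix. Type I collagen is the main fibrous protein of bone, type II with types IX and XI builds the fibrils of cartilage and of the tectorial membrane over the hair cells, and type IV forms the sheet of basement membranes under epithelia and around vessels. Inherited defects of several cochlear collagens, among them COL11A2 and the type IV chains of Alport syndrome, are known causes of hearing loss. The genes were grouped by the structure of their chains into 11 fibril-forming, 9 fibril-associated, 6 basement membrane, 6 beaded filament, 4 short-chain network or anchoring, 4 transmembrane and 2 multiplexin genes, with 2 others.

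The labels give the material as cochlear cells and name interstitial cells, while the libraries held markers of several tissues. Neutrophil markers such as Ngp and S100a8 summed to between 9329 and 63096 FPKM, markers of osteoblasts and osteocytes, the bone-forming and bone-embedded cells, to between 391.9 and 1021 FPKM, markers of cochlear fibrocytes such as Coch to between 559 and 1391 FPKM, and hair cell markers to between 9.04 and 17.4 FPKM. Markers of cerebellar and hindbrain neurons summed to 163, 430 and 162 FPKM in control 1, 2 and 3, to between 4.11 and 12.6 FPKM in the NE group, and to between 4.94 and 51.7 FPKM in the brimonidine group, the highest being brimonidine 5. All 8 of these neuron markers were at least 2-fold lower in both exposed groups by limma with Benjamini-Hochberg adjustment. Skeletal muscle markers summed to 177, 487 and 213 FPKM in the controls, to between 347 and 847 FPKM in the NE group and to between 279.6 and 714 FPKM in the brimonidine group, and 3 of the 6, Acta1, Myh1 and Ckm, were at least 2-fold higher in the NE group (limma adjusted p between 0.0423 and 0.0471), with 0 of 6 called for brimonidine against control. Without control 1 or without control 3 none of the 3 was called, and without control 2 all 3 were also called for brimonidine against control. The part of these muscle and neuron markers in the differences from control given below was not tested. Control 2 stood apart from the other 16 libraries: its neutrophil markers summed to 9329 FPKM against 42401 and 44761 FPKM in the other controls, and its erythroid markers to 10750 FPKM against 2859 and 1755 FPKM. The libraries held between 14457733 and 18288854 counted fragments, so that between 14813 and 56197 fragments lay on Col1a1 and between 203 and 739 on Col18a1. Because the tissue was bulk, fewer cells of a type and less RNA per cell cannot be told apart.

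Type I collagen dominated the family. Col1a1, the α1 chain of type I collagen, had the highest level, with a mean of 317.6 FPKM over the 17 libraries and rank 102 among all 35285 genes, and Col1a2, its partner chain, followed with 145.9 FPKM. Next came Col11a2, a type XI chain that controls fibril width in cartilage and the tectorial membrane, with 48.4 FPKM, above Col3a1 of skin and vessel fibrils (16.4), Col2a1 of cartilage (16.4), Col6a1 of beaded filaments (11.9), Col5a2 of mixed type I fibrils (11.8) and Col4a1 of basement membranes (10.9). Each of Col1a1, Col1a2 and Col11a2 was above the next gene of this order in 17 of 17 libraries. Below them the order was not fixed: Col3a1 was above Col2a1 in 11 of 17 libraries, Col6a1 above Col5a2 in 10 and Col5a2 above Col4a1 in 10, with overlapping ranges. In all, 33 genes averaged 1 FPKM or more, 8 of them at least 10, and 11 lay under 1, down to Col6a4 with a mean of 0.0184 FPKM and between 0 and 6 fragments a library. The 11 were Col4a3, Col4a4, Col4a6, Col6a4, Col6a5, Col6a6, Col7a1, Col10a1, Col19a1, Col26a1 and Col28a1. The plot of levels by gene shows this range.

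**Figure D1:**
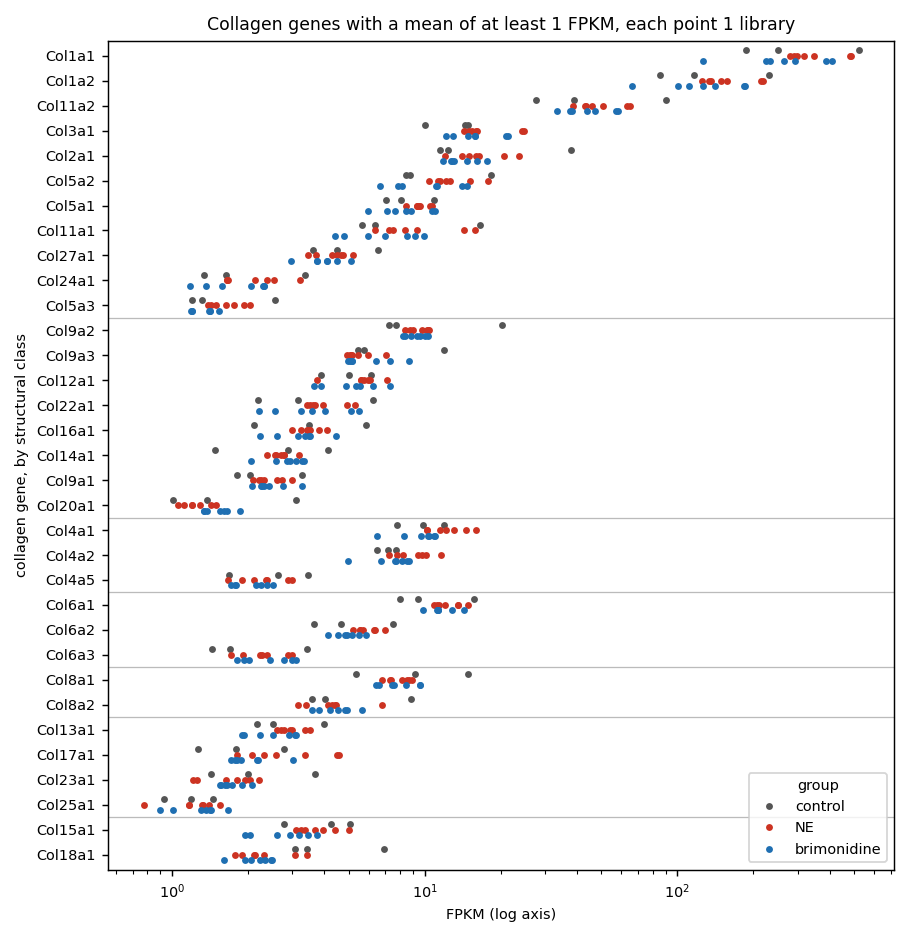
FPKM (log axis) of the 33 collagen genes that averaged 1 FPKM or more, ordered by structural class (grey lines) and mean, with a point for each library coloured by group. Col1a1 lies between 126 and 521 FPKM, and each pair of groups overlaps for every gene drawn except Col18a1 at the bottom, whose control points all lie above the brimonidine points (14.3% of all genes tested were likewise lower with no overlap).

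The 44 genes together made up between 0.0875% (brimonidine 2) and 0.312% (control 2) of the summed FPKM of a library, with means of 0.184% ± 0.111 (SD, n = 3) for the controls, 0.191% ± 0.0439 (SD, n = 7) after noise and 0.158% ± 0.0471 (SD, n = 7) after noise with brimonidine. The control SD came from control 2: the other controls were at 0.128% and 0.112%, below all 7 NE libraries, which lay between 0.153% and 0.258%. Type I collagen made up between 54.2% and 73.5% of the collagen FPKM, again the lowest in brimonidine 2.

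Of the 44 genes, 34 passed the filter of at least 1 FPKM in at least 3 of the libraries compared for NE against control and for brimonidine against NE, and 33 for brimonidine against control. The 10 left out of every comparison were the genes with means under 1 FPKM other than Col4a6, and Col4a6 was left out of the last. A gene counted as differentially expressed at a limma adjusted p (Benjamini-Hochberg, over all genes tested) under 0.05 and at least a 2-fold change.

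The NE and control groups differed in noise and in the saline injections, which the study describes for the control group and not for the NE group. For NE against control, 0 of the 34 collagen genes passed in either direction, where 0.27% of all 15950 genes tested were higher and 5.49% were lower in the NE group. Without the minimum fold it was again 0 of 34, where 2.12% of all genes were higher and 12% lower. At an unadjusted p under 0.05 limma gave 1 collagen gene higher (Col4a2) and 1 lower (Col18a1), where 10.6% of all genes were higher and 22.3% lower. By voom on the recovered fragments 2 collagen genes were higher and 1 lower at an unadjusted p under 0.05, where 5187 of all 15950 genes reached it. At an adjusted p under 0.05 voom gave 0 collagen genes, where 315 of all genes were higher and 1980 lower. The log2 fold changes lay between −0.64 and 0.44 with a median of 0.059, against −0.044 for all genes tested, and their median SE was 0.19. The 95% interval lay inside 2-fold in either direction for 33 of the 34, the exception being Col18a1. The libraries of the NE and control groups overlapped for all 34 genes, where with no overlap 3.24% of all genes lay higher after noise and 15% lay lower.

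The brimonidine and NE groups differed in the drug and in being injected, as the study describes no injections for the NE group. For brimonidine against NE, 0 of 34 collagen genes passed, where 0% of all 15707 genes tested passed in either direction. Without the minimum fold it was 0 of 34, where 0.00637% of all genes were higher and 0% lower. At an unadjusted p under 0.05 limma gave 1 collagen gene higher and 6 lower, where 3.3% of all genes were higher and 2.46% lower. By voom 1 was higher and 7 lower, where 891 of all 15707 genes had an unadjusted p under 0.05. At an adjusted p under 0.05 voom gave 0 collagen genes, where 1 of all genes was higher and 0 lower. The log2 fold changes lay between −0.42 and 0.17 with a median of −0.12, against 0.015 for all genes tested, and all 34 intervals lay inside 2-fold. The groups overlapped for all 34, where 0.102% of all genes were higher and 0.0382% lower with no overlap.

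For brimonidine against control, 0 of 33 collagen genes passed with the 2-fold minimum, where 0.169% of all 15947 genes tested were higher and 5.56% lower. Without that minimum 1 gene passed, Col18a1, which was lower, where 3.47% of all genes were higher and 12.3% lower. At an unadjusted p under 0.05 limma again gave Col18a1 and no other collagen gene, where 13.6% of all genes were higher and 22% lower. By voom the same gene passed at an adjusted p under 0.05, where 565 of all 15947 genes were higher and 2085 lower. The log2 fold changes lay between −0.73 and 0.28 with a median of −0.095, against −0.031 for all genes, and 32 of 33 intervals lay inside 2-fold. The groups overlapped for all but Col18a1, where 5.07% of all genes were higher and 14.3% lower with no overlap. The NE and brimonidine groups were compared with the same 3 control libraries. Quantile normalization moved the median of all genes by 0.11 for NE against control and by 0.10 for brimonidine against control. Relative to that median the collagen median was 0.10 and 0.16 for NE against control, as deposited and after quantile normalization, and −0.063 and −0.013 for brimonidine against control.

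**Figure D2:**
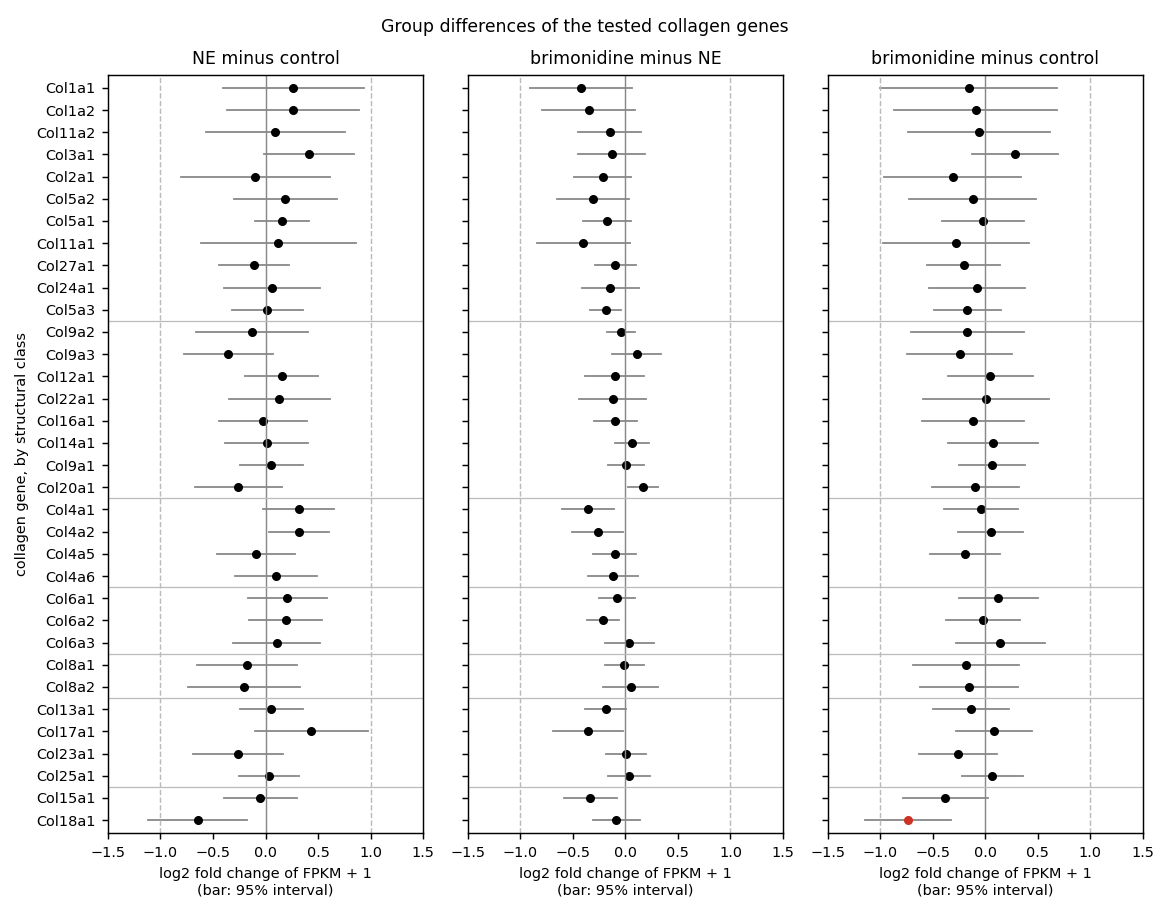
log2 fold change on the log2(FPKM + 1) scale (x axis) of each tested collagen gene (y axis, by class) in the 3 comparisons, with its 95% limma interval as a bar and dashed lines at 2-fold. Col18a1 in brimonidine minus control, at −0.73, is the 1 red point with an adjusted p under 0.05. In brimonidine minus NE the 11 fibril-forming genes at the top all lie left of 0, as do the 4 basement membrane and 2 multiplexin genes, and 26 of 34 genes in all.

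Col18a1, on chr10:77052178-77166548 (GRCm38, minus strand), codes for the α1 chain of type XVIII collagen, a multiplexin of basement membranes whose cut end is endostatin. It measured 3.08, 6.93 and 3.43 FPKM in control 1, 2 and 3. In the NE group it measured 1.79, 3.43, 1.89, 2.32, 3.06, 2.12 and 2.14 FPKM in replicates 1 to 7, and in the brimonidine group 2.46, 1.61, 1.95, 2.34, 2.23, 2.06 and 2.502 FPKM. The brimonidine libraries all lay below the controls, whereas NE 2 lay between control 1 and control 3 and NE 5 just below control 1. The mean of Col18a1 was 2.16 ± 0.315 (SD, n = 7) FPKM in the brimonidine group and 4.48 ± 2.13 (SD, n = 3) FPKM in the controls. Their ratio was 0.483, before the 1 FPKM added for the log2 scale. The log2 fold change of brimonidine against control was −0.73 (SE 0.19, 95% interval −1.14 to −0.32, limma adjusted p = 0.0244, lower in 7 of 7 libraries than the control mean). The exact two-sided permutation test gave p = 0.0167, the smallest p that it allows for 7 against 3, reached by every gene whose 2 groups do not overlap. Without control 2 the log2 fold change was −0.43 (limma adjusted p = 0.0443), and without both control 2 and brimonidine 5 it was −0.44 (limma adjusted p = 0.0647). For NE against control it was −0.64 (SE 0.21, limma adjusted p = 0.0679), and −0.34 (limma adjusted p = 0.298) without control 2. For brimonidine against NE it was −0.088 (SE 0.11, interval −0.31 to 0.14).

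The cerebellar neuron markers, like Col18a1, were higher in the 3 controls than in the brimonidine group, as given above. Within that group, brimonidine 5 held the highest neuron marker sum, 51.7 FPKM, and its Col18a1 was 2.23 FPKM, the group median. Of the 6 meningeal markers, Slc22a6 was lower in the brimonidine group (log2 fold change −0.68, SE 0.21, limma adjusted p = 0.0494) and 0 were called for NE against control, with the list's sum between 1284 and 2708 FPKM in the controls, 1149 and 1575 FPKM in the NE group and 1095 and 1480 FPKM in the brimonidine group. Of the 5 Schwann cell markers, Mbp, a myelin protein, was lower in the brimonidine group (log2 fold change −0.74, SE 0.22, limma adjusted p = 0.0428), with the list's sum between 158 and 394 FPKM in the controls, 127 and 229 FPKM in the NE group and 146 and 178 FPKM in the brimonidine group. Without control 2, Slc22a6 and Mbp had −0.403 and −0.41 (limma adjusted p of 0.189 and 0.131). The part of these lists in the Col18a1 result was not tested. The other multiplexin gene, Col15a1, a basement membrane chain of vessels and muscle, measured 2.79, 5.05 and 4.28 FPKM in the controls, between 3.10 and 5.02 (median 3.68) FPKM in the NE group and between 1.95 and 3.76 (median 2.94) FPKM in the brimonidine group. The 3 groups overlapped. Its log2 fold change was −0.38 for brimonidine against control (limma adjusted p = 0.16), or −0.57 (limma adjusted p = 0.0427) without control 1 and −0.24 (limma adjusted p = 0.497) without control 2, and −0.33 for brimonidine against NE (SE 0.12, limma adjusted p = 0.712, exact permutation p = 0.0233), lower than the NE mean in 7 of 7 brimonidine libraries.

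Among the fibril-forming genes, Col1a1 (chr11:94936224-94953042) measured 251, 521 and 187 FPKM in the controls. In the NE group it measured 488, 289, 299, 279.7, 348, 316 and 484 FPKM, and in the brimonidine group 409, 126, 233, 224, 265, 293 and 388 FPKM. The controls alone spanned most of the range of both other groups. The means were 319.7 ± 178 (SD, n = 3), 358 ± 90.4 (SD, n = 7) and 277 ± 98.0 (SD, n = 7) FPKM, and the exact permutation tests gave p = 0.417 for NE against control, p = 0.117 for brimonidine against NE and p = 0.75 for brimonidine against control. Its log2 fold changes against control turned sign with 1 control: 0.26 for NE went to 0.69 without control 2 and −0.053 without control 3, and −0.16 for brimonidine went to 0.27 without control 2 and −0.47 without control 3. Col2a1, the type II chain of cartilage, measured 12.4, 37.8 and 11.5 FPKM in the controls, between 12.0 and 23.5 (median 16.0) in the NE group and between 11.9 and 17.7 (median 13.0) in the brimonidine group, so that control 2 lay above every other library. Col11a2 and Col11a1, both type XI chains, had control 2 as their highest library as well, at 89.9 and 16.5 FPKM, against at most 65.0 and 15.8 FPKM in the other 16 libraries. Col5a2, chosen with Col2a1, Col11a1 and Col11a2 after the values were seen, measured 8.45, 18.3 and 8.77 FPKM in the controls, between 10.4 and 17.8 FPKM in the NE group and between 6.64 and 14.7 FPKM in the brimonidine group.

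Col3a1 (chr1:45311538-45349706) had another order of libraries than the type I genes. It measured 9.99, 14.9 and 14.5 FPKM in the controls, 14.3, 24.3, 15.0, 16.0, 24.6, 16.1 and 15.5 FPKM in the NE group, and 21.3, 12.2, 12.9, 14.9, 15.8, 15.9 and 21.0 FPKM in the brimonidine group. NE 2 and NE 5 were its high NE libraries, where those of Col1a1 were NE 1 and NE 7. Its log2 fold change was 0.41 for NE against control (limma adjusted p = 0.165), above the control mean in 7 of 7 NE libraries, and 0.28 for brimonidine against control (limma adjusted p = 0.288). Without control 1, its low control, these were 0.24 and 0.11. Taken over the class, all 11 fibril-forming genes had a lower mean log2 level in the brimonidine than in the NE group, with log2 fold changes between −0.42 and −0.094 and a median of −0.19, and that sign held for all 11 in each of the 24 fits run for this comparison, the 3 rescalings included. The genes of the class vary together across libraries, so the 11 signs are not 11 observations, and none of the 11 had an adjusted p under 0.05. The sign was not particular to this class. All 4 tested basement membrane genes (median −0.19) and both multiplexin genes (median −0.21) were also negative, as were 26 of the 34 collagen genes in all. For NE against control 9 of the 11 were positive, and this count lay between 3 (without control 3) and 11 (without control 2) over the 20 fits.

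The type IV genes lie in pairs, head to head. Col4a1 (chr8:11198423-11312826, minus strand) and Col4a2 (chr8:11312805-11449287, plus strand), whose chains form the common basement membrane trimer, overlap by 22 bases at their starts. Their promoter windows, 250 bases before to 50 after the start of transcription in RefSeq on GRCm38.p6, share 78 bases read in opposite directions. They are printed 5′ to 3′ with that of Col1a2, whose partner Col1a1 lies on another chromosome, and that of Col3a1, because these genes move together or apart in the libraries. Capitals mark each match on either strand to CCAAT, to the GC box GGGCGG or to the TATA box TATAAA, and these motifs do not overlap in the 4 windows. The windows are chr8:11312777-11313076 (minus strand), chr8:11312555-11312854 (plus), chr6:4505368-4505667 (plus) and chr1:45311288-45311587 (plus), in the order printed.
Col4a1: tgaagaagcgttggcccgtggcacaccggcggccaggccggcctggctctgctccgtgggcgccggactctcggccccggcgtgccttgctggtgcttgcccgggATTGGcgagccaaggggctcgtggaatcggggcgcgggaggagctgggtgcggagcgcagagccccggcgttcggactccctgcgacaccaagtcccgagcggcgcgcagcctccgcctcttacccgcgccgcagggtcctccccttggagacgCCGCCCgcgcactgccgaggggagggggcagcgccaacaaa
Col4a2: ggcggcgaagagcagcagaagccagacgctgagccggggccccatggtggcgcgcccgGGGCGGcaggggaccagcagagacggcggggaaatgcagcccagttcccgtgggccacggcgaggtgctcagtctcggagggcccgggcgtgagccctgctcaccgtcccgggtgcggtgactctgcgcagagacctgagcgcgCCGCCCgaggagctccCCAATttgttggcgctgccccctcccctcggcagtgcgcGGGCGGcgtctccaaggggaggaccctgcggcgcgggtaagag
Col1a2: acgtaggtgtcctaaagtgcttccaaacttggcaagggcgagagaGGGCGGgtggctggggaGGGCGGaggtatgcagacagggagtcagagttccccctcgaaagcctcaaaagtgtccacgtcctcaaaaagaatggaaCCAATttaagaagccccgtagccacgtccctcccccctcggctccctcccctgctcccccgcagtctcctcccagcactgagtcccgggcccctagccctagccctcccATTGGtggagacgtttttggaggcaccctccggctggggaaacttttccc
Col3a1: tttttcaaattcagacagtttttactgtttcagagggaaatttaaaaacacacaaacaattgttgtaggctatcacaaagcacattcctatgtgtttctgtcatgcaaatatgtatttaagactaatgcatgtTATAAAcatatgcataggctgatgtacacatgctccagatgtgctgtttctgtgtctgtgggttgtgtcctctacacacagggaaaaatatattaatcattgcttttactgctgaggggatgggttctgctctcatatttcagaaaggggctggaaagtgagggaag

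The Col4a1 and Col4a2 windows held 74% and 73.7% G and C, a GC box in the shared stretch and no TATAAA, whereas the Col3a1 window held 37.7% G and C, a TATAAA and neither of the other motifs. RefSeq windows were found for 35 of the 44 collagen genes, 38 windows in all. A GC box was in 23 of the 38 (60.5%) against 35.7% of all 32851 windows, CCAAT in 34.2% against 37.4%, and TATAAA in 13.2% against 13.6%. These are matches of letters and do not show that a factor binds there. The genes with no window were Col1a1, Col2a1, Col5a2, Col9a3, Col12a1, Col22a1, Col14a1, Col4a3 and Col26a1.

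Col4a1 measured 7.81, 12.0 and 9.90 FPKM in the controls, 10.2, 16.0, 10.2, 13.0, 14.6, 12.1 and 11.5 FPKM in the NE group and 10.9, 6.51, 8.31, 10.3, 10.4, 9.64 and 11.0 FPKM in the brimonidine group. Of the NE libraries, 5 of 7 lay above every brimonidine library, and NE 1 and NE 3 lay within the brimonidine range. The log2 fold change was −0.35 for brimonidine against NE (SE 0.12, limma adjusted p = 0.661, exact permutation p = 0.0122), with 7 of 7 brimonidine libraries below the NE mean, and 0.31 for NE against control (limma adjusted p = 0.184), or 0.17 without control 1. Col4a2 measured 6.46, 7.69 and 7.17 FPKM in the controls, between 7.24 and 11.6 (median 9.40) in the NE group and between 5.00 and 8.67 (median 7.67) in the brimonidine group, and its log2 fold change for NE against control was 0.32 (SE 0.13, limma adjusted p = 0.12, exact permutation p = 0.0333). The ratio of Col4a1 to Col4a2 stayed between 1.21 and 1.56 over the 17 libraries while the genes themselves ranged over 2.46 and 2.33 times. Col4a3, Col4a4 and Col4a5, the chains affected in Alport syndrome, had means of 0.444, 0.729 and 2.27 FPKM, and Col4a6 had 0.865 FPKM. The starts of Col4a3 and Col4a4 lie 71 bases apart on chromosome 1 and those of Col4a5 and Col4a6 1308 bases apart on chromosome X. Of the exons of Col4a3, 5.65% overlap an antisense gene, and of those of Col9a3, 6.07% overlap Tcfl5 on the other strand. The kit was strand-specific, but the strand setting of the counting is not given in the sources used here.

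The beaded filament genes Col6a1 and Col6a2, chains of the type VI microfibrils around cells, were not called in any comparison. Col6a1 measured 7.96, 15.7 and 9.38 FPKM in the controls, between 10.9 and 14.8 (median 12.0) in the NE group and between 9.82 and 14.3 (median 11.3) in the brimonidine group. Col6a2 measured between 5.19 and 6.97 (median 5.70) FPKM in the NE group and between 4.14 and 5.89 (median 4.94) in the brimonidine group, overlapping, with a log2 fold change of −0.21 (SE 0.07, limma adjusted p = 0.661, exact permutation p = 0.0117). The ratio of Col6a1 to Col6a2 was 2.10 ± 0.0844 (SD, n = 3) in the control, 2.10 ± 0.174 (SD, n = 7) in the NE and 2.34 ± 0.104 (SD, n = 7) in the brimonidine group, the lowest brimonidine ratio being 2.19 and the highest control ratio 2.18. It is given without a test, as 1 of 11 ratios computed. Col6a3, the long chain of the same filaments, had log2 fold changes of 0.14 for brimonidine against control (limma adjusted p = 0.618) and 0.038 for brimonidine against NE, and Col6a1 had 0.13 (limma adjusted p = 0.623) and −0.083. Without control 1 both turned to the other side of 0 against control, at −0.024 and −0.060.

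The fibril-associated genes sit on the surface of fibrils. Col9a2 and Col9a3, type IX chains of cartilage and tectorial membrane, measured 20.2 and 12.0 FPKM in control 2, and at most 10.4 and 8.69 FPKM in the other 16 libraries. Col9a3 had a log2 fold change of −0.35 for NE against control (limma adjusted p = 0.227), of −0.030 without control 2 and −0.53 without control 3, and of 0.11 for brimonidine against NE. Col20a1, a little studied chain of the same class, was higher in brimonidine than the NE mean in 7 of 7 libraries, with 1.34 to 1.86 (median 1.56) against 1.06 to 1.497 (median 1.20) FPKM, a log2 fold change of 0.17 (SE 0.07, limma adjusted p = 0.851) and an exact permutation p of 0.0140. Against control its NE value was −0.26, or 0.043 without control 2 and −0.47 without control 1. Col14a1, which binds fibrils in skin and tendon, lay between 1.48 and 4.14 FPKM over all libraries with a log2 fold change of 0.059 for brimonidine against NE. Col19a1, a fibril-associated chain known from brain and muscle and named here after its values were seen, did not pass the filter. It held 22, 59 and 18 fragments in the controls, between 0 and 15 in the NE libraries and between 1 and 11 in the brimonidine libraries. With no filter on low values it was lower in the brimonidine group (limma adjusted p = 0.0308, log2 fold change −0.32 from at most 0.564 FPKM), where 6.58% of all 33505 genes then tested were lower, and for NE against control it had −0.29 (limma adjusted p = 0.0533). Without control 2 these were −0.19 (limma adjusted p = 0.00927) and −0.16 (limma adjusted p = 0.0681), and the call against brimonidine was lost without any single brimonidine library other than brimonidine 5 (limma adjusted p between 0.0564 and 0.0613). The cerebellar neuron markers were likewise higher in the controls, and their part was not tested.

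None of the short-chain network or transmembrane genes averaged 10 FPKM. Col8a1 and Col8a2, the type VIII chains of the Descemet membrane and vessels, had means of 8.28 and 4.63 FPKM, with control 2 the highest of the 17 libraries for both at 14.8 and 8.83 FPKM. Of the transmembrane genes, Col13a1, found at the neuromuscular junction, lay between 1.89 and 4.01 FPKM, and Col23a1 between 1.22 and 3.70 FPKM. Col17a1, a hemidesmosome chain of epithelia, lay between 1.80 and 4.60 (median 2.59) FPKM in the NE group and between 1.72 and 3.00 (median 1.88) in the brimonidine group, a log2 fold change of −0.35 (SE 0.16, limma adjusted p = 0.857, exact permutation p = 0.0594). Col23a1 had −0.26 for brimonidine against control (limma adjusted p = 0.292), 0.0073 without control 2 and −0.47 (limma adjusted p = 0.0482) without control 1.

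**Figure D3:**
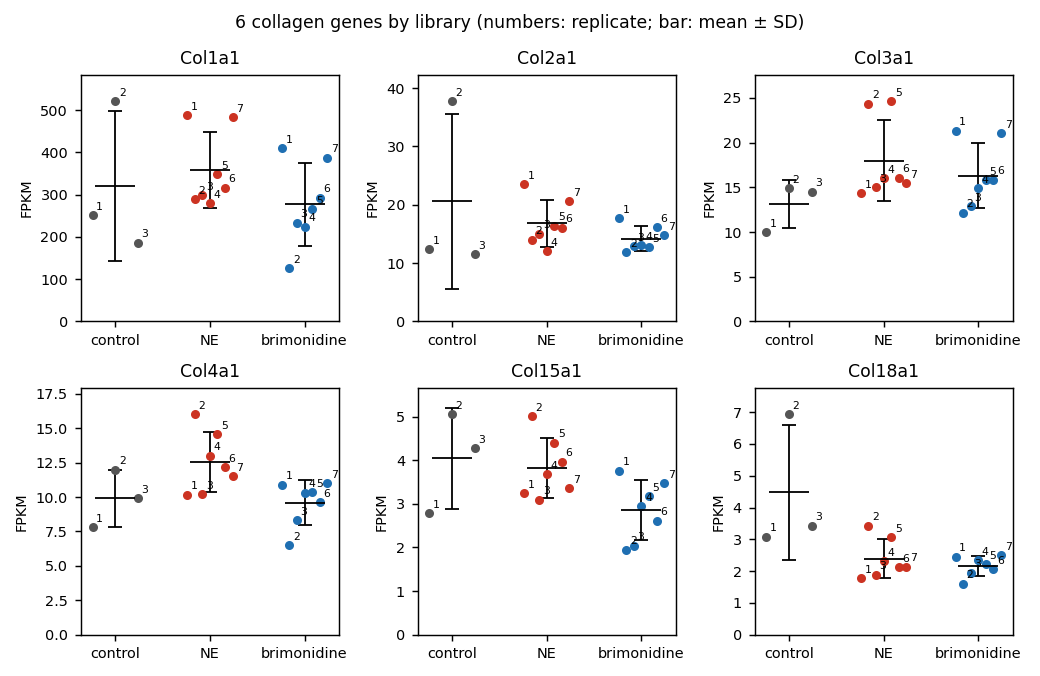
FPKM (y axis from 0) of 6 collagen genes in each library, with the replicate number beside each point and the mean ± SD of the group as a black bar. Control 2 is the top point of Col1a1, Col2a1 and Col18a1, at 521, 37.8 and 6.93 FPKM, and NE 2 and NE 5 are the top NE points of Col3a1, Col4a1, Col15a1 and Col18a1.

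Control 2 stood apart for the collagen genes as well. It was the highest control for 31 of the 33 genes that averaged 1 FPKM or more, all but Col17a1 and Col25a1, and the highest of all 17 libraries for 25 of them. It was also the highest control by summed FPKM for 11 of the 14 marker lists, among them the osteoblast (1021 against 492 and 404 FPKM), cochlear fibrocyte (1391 against 559 and 749.9 FPKM), chondrocyte (256 against 97.0 and 114 FPKM) and cochlear epithelium lists (339 against 108 and 160 FPKM). The 3 exceptions were the neutrophil list, the B and plasma cell list and the fibroblast list, the last with 199 against 171 and 214 FPKM. The part of these markers was not tested. Without control 2, the NE against control median of the collagen genes went from 0.059 to 0.28, against −0.014 for all genes in that fit, and 32 of 34 genes were positive. Of these, Col6a1 and Col6a2 had a limma adjusted p under 0.05, at 0.47 and 0.43, where 0.875% of all genes were higher and 5.86% lower, and both were near 0 without control 1, at 0.024 and −0.0016. The brimonidine against control median went from −0.095 to 0.18, against −0.0042 for all genes. Without control 1 or control 3 the NE against control median fell below 0, to −0.058 and −0.052. Brimonidine 2 was the lowest of its group for 20 of the 33 genes, and brimonidine 1 and 7 were the highest 2 of the group for 23.

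Within the NE group the genes fell into 2 main orders. For 10 genes NE 1 and NE 7 were the highest 2 libraries: Col1a1, Col1a2, Col2a1, Col5a1, Col5a2, Col11a1, Col11a2, Col13a1, Col22a1 and Col24a1. For 11 genes they were NE 2 and NE 5: Col3a1, Col4a1, Col6a1, Col6a3, Col8a1, Col8a2, Col14a1, Col15a1, Col16a1, Col17a1 and Col18a1. The first order held 8 of the 11 fibril-forming genes, and the second held both type VIII and both multiplexin genes. Osteoblast and osteocyte markers summed to 835, 487, 496, 434, 605, 655 and 614 FPKM in NE 1 to 7, so that NE 1 was the highest and NE 6 lay above NE 7. Fibroblast markers such as Dpt and Pi16 summed to 206, 248, 195, 176, 268, 190 and 197 FPKM, with NE 2 and NE 5 the highest. This is a description of 7 libraries, and the part of those markers was not tested.

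**Figure D4:**
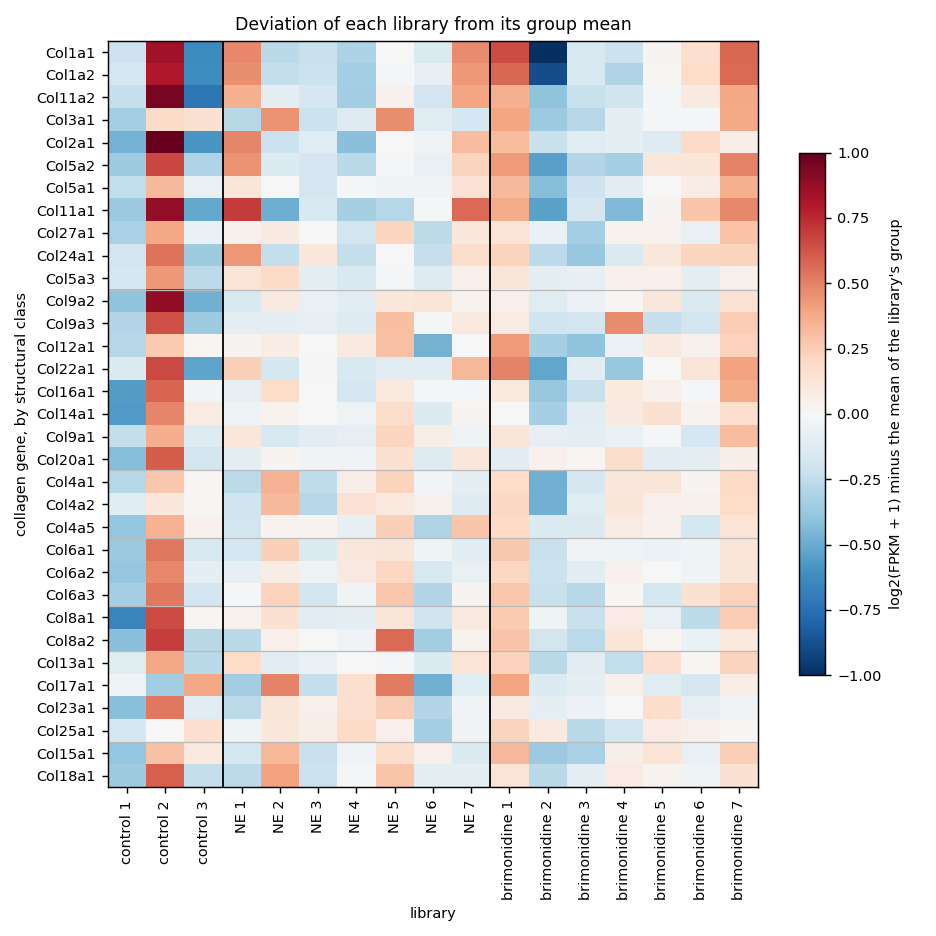
Colour gives log2(FPKM + 1) minus the mean of the library's group for the 33 genes that averaged 1 FPKM or more (rows, by class) in the 17 libraries (columns). Control 2 is the reddest control for 31 genes, brimonidine 2 is blue for most, and NE 1 and NE 7 are red for Col1a1, Col1a2 and Col11a1 where NE 2 and NE 5 are red for Col3a1, Col15a1 and Col18a1.

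Chains of 1 protein kept steadier ratios than the genes kept levels in some pairs and not in others. Col1a1 to Col1a2 lay between 1.89 and 2.26 in FPKM over the 17 libraries, a range of 1.19 times, while Col1a1 ranged over 4.15 times and Col1a2 over 3.47 times. The size of this ratio depends on the gene length used: the merged exons of Col1a2 span 12426 bases against 5348 in its longest coding transcript, and those of Col1a1 6563 against 5930. Per length of the longest coding transcript the ratio lay between 0.902 and 1.08 with a median of 1.04, so the gap of both levels given above is not seen on that scale. Of the other genes, the 7 with the longest merged exons relative to this transcript were at 4.93 times for Col25a1, 3.00 for Col26a1, 2.11 for Col6a2, 1.76 for Col3a1, 1.71 for Col27a1, 1.66 for Col11a1 and 1.61 for Col19a1. On the transcript scale the ratio of Col6a1 to Col6a2 had a median of 1.11 in place of 2.19. The type XI pair Col11a1 to Col11a2 ranged over 2.01 times, less than the 3.75 and 3.26 times of its genes. The type IX pair Col9a1 to Col9a2 also ranged over 2.01 times, more than the 1.81 times of Col9a1, and Col4a5 to Col4a6 over 2.24 times, more than the 2.08 times of Col4a5. Between genes of different proteins, Col2a1 to Col1a1 ranged over 2.48 times, as the plot of ratios shows.

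**Figure D5:**
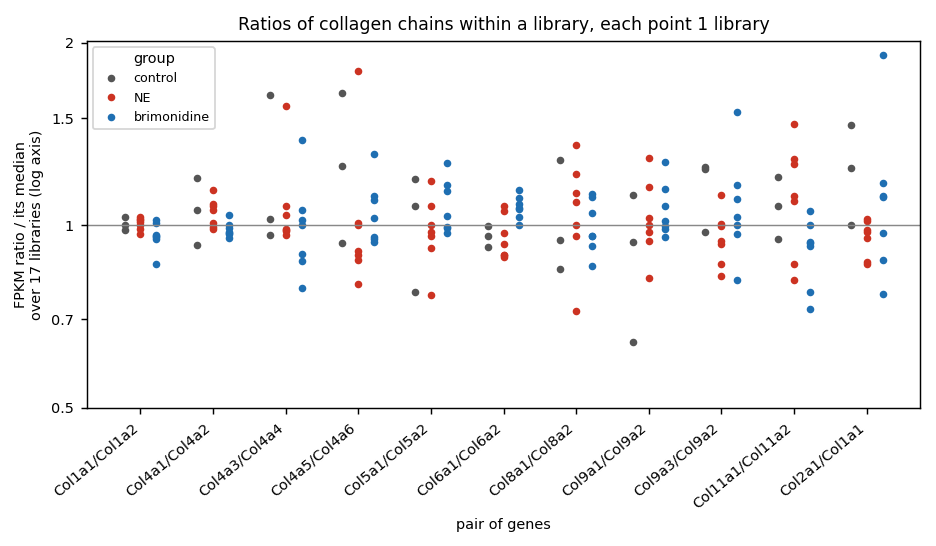
FPKM ratio of 11 pairs of collagen genes divided by its median over the 17 libraries (log axis), with a point for each library coloured by group. Col1a1/Col1a2 has the narrowest range, 1.19 times, followed by Col4a1/Col4a2 and Col6a1/Col6a2 at 1.29 times each, and the brimonidine points of Col6a1/Col6a2 lie above the control points.

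The genes that make, cut, bind and remove collagen were read as 5 lists of 71 genes, 65 of them tested, of which 0 passed with the 2-fold minimum in any comparison. Without it limma and voom each gave 1 higher and 1 lower (1.54% each) for NE against control, where limma gave 2.12% of all genes higher and 12% lower. For brimonidine against control both gave 2 higher (3.08%) and 3 lower (4.62%), where 3.47% of all genes were higher and 12.3% lower. For brimonidine against NE both gave 0, with 7 higher (10.8%) and 4 lower (6.15%) at an unadjusted p under 0.05, where 3.3% of all genes were higher and 2.46% lower. Of 21 tested genes of collagen synthesis and folding, 1 passed without it, P3h3, an endoplasmic reticulum protein of the prolyl 3-hydroxylase family, which fell in the brimonidine group against control (log2 fold change −0.64, SE 0.19, limma adjusted p = 0.0491). Serpinh1, the collagen chaperone HSP47, had −0.17 for NE against control (limma adjusted p = 0.639), 0.16 without control 2 and −0.44 without control 1, −0.29 for brimonidine against control (limma adjusted p = 0.343), 0.043 without control 2 and −0.56 (limma adjusted p = 0.0545) without control 1, and −0.12 for brimonidine against NE. Of 10 tested genes of procollagen processing and crosslinking, 1 passed, Bmp1, the protease that cuts off the C-propeptide. It measured 25.5, 50.5 and 27.1 FPKM in the controls, between 15.7 and 22.01 FPKM in the NE group and between 14.7 and 22.4 FPKM in the brimonidine group, with no overlap with the controls. Of all genes tested, 15% and 14.3% likewise lay below the controls with no overlap in the NE and brimonidine groups. Bmp1 fell by 0.82 on the log2 scale in the NE group (SE 0.19, limma adjusted p = 0.017) and by 0.81 in the brimonidine group (SE 0.21, limma adjusted p = 0.0273), both against the same controls. Without control 2 these were −0.52 (limma adjusted p = 0.0348) and −0.51 (limma adjusted p = 0.0866). Of 13 tested genes that bind fibrils, 1 passed, Fn1, fibronectin, which rose by 0.53 (SE 0.16, limma adjusted p = 0.0482) and 0.76 (SE 0.12, limma adjusted p = 0.00256) in the NE and brimonidine groups, with values of 0.40 (limma adjusted p = 0.21) and 0.63 (limma adjusted p = 0.00607) without control 2. Of 13 receptor and uptake genes, Antxr2 rose by 0.35 (limma adjusted p = 0.0357) and Ddr1, a collagen-binding kinase, fell by 0.51 (limma adjusted p = 0.0491) in the brimonidine group against control, and 0 passed for NE against control. Without control 2, P3h3, Antxr2 and Ddr1 had −0.34, 0.23 and −0.43 with limma adjusted p of 0.16, 0.114 and 0.163. Of 8 degradation genes such as Ctsk and Mmp9, 0 passed, and 0 genes of any of these lists passed for brimonidine against NE. The list medians lay between −0.15 and 0.17, and 0 of 10 tested osteoblast markers and 0 of 6 chondrocyte markers passed in any comparison.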

How the data were processed

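The authors isolated cochlear RNA by TRIzol, prepared stranded mRNA libraries, sequenced them on a NovaSeq instrument, and deposited FPKM values for 35285 genes. The submitters' processing notes name Trimmomatic, HISAT2, HTSeq, Cufflinks and the build mm10, and no versions or annotation are given in the sources used here. Positions equalled those of GENCODE M21 (GRCm38) for 93.9% of 35207 genes. Multiplied by the GENCODE exon length and library total, the values of 92.6% of the genes above 0 came out whole, within 0.02 fragments, 39 of the 44 collagen genes among them, which gave the depth of each library. For the other genes, Col2a1, Col8a1, Col11a2, Col17a1 and Col20a1 among them, a length was chosen that made the values whole, so their wholeness is no check. The values carry no other scaling across libraries.

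Genes with at least 1 FPKM in at least 3 libraries compared were tested with limma 3.58.1 (R 4.3.3, lmFit and eBayes with trend) on log2(FPKM + 1), a scale that understates changes of low genes, in a model of only the 2 groups compared, with Benjamini-Hochberg adjustment over all genes tested. DESeq2, named by the study, was not run, since the deposited values are FPKM; voom was run on the recovered fragments. The fit was tested on simulated data. Single genes were compared by exact two-sided permutation tests (Python 3.11.15, scipy 1.17.1, numpy 2.4.6, pandas 2.3.3), and figures drawn with matplotlib 3.10.9. The p-values measure the spread between mice as labelled.

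The collagen genes, the 5 companion lists and the marker lists were chosen with earlier results of these data known. Genes named were the 2 most expressed of each class with a mean of at least 1 FPKM, those called, and, per comparison, the 3 with the smallest p on either side of 0, with Col2a1, Col5a2, Col11a1 and Col11a2 added after values were seen. Replicate numbers did not pair the libraries. Alternatives were a pseudocount of 0.1, no filter, 3 rescalings, all 17 libraries in 1 model, array weights, voom on recovered fragments, no minimum fold, the replicate number as a block, and leaving out single libraries, which for Col19a1 with no filter was added after seeing the data. Promoter windows came from RefSeq (GRCm38.p6).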

Additional observations from a re-analysis of the deposited data

Results flagged for a closer look

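Among the 23 named collagen genes in the 2 groups of 7 libraries (46 sets of values), 2 sets held a library set apart from its group by Dixon's test, where chance flags about 1 in 20 groups. Col17a1 measured 3.00 FPKM in brimonidine 1 and 2.20 FPKM in the next library. Col8a2 measured 6.81 FPKM in NE 5 and 4.46 FPKM in the next.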

How the results depend on the processing

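All 62 recomputed counts of collagen genes called with the 2-fold minimum stayed at 0, and of the 3 without that minimum 2 were 0 and that of brimonidine against control was 1 (Col18a1), or 2 with Col19a1 when no filter was used. Without the minimum, array weights gave 13 genes higher and 1 lower for NE against control, where 14.3% of all genes were higher and 23.1% lower, and 4 higher and 2 lower for brimonidine against control, where these were 18.7% and 24.7%, and the cause was not tested. For NE against control, quantile normalization gave Col4a2 higher (5.99% of all genes), all 17 libraries in 1 model gave Col18a1 lower (19.5%), and leaving out control 1 gave Col18a1 and Col8a1 lower (16.4%). For brimonidine against control, leaving out control 1 gave Col15a1, Col18a1 and Col23a1 lower (18.7%). Leaving out 1 library gave collagen medians between −0.058 and 0.28 for NE against control, between −0.18 and −0.081 for brimonidine against NE and between −0.24 and 0.18 for brimonidine against control, the highest without control 2. With the replicate number as a block (replicate block, 3 pairs), Col18a1 had −0.81 (limma adjusted p = 0.321) for brimonidine against control, and the block left 0 collagen genes called in all 3 comparisons, with or without the minimum fold. By either rule the block also left 0 of all 15950 genes for NE against control and 0 of 15707 for brimonidine against NE. For brimonidine against control it left 2 of 15947 higher and 234 lower. The libraries share only a number: same-numbered libraries correlated around their group means between −0.22 and 0.083, and the best match was the library's own number for 1 of 3 NE and control pairs, 0 of 3 brimonidine and control pairs and 0 of 7 brimonidine and NE pairs. Leaving out 1 library, Col20a1 lay between −0.47 and 0.043 for NE against control and Col23a1 between −0.47 and 0.0073 for brimonidine against control, turning sign without control 2, and Col6a1 lay between −0.060 and 0.39 and Col6a3 between −0.024 and 0.41 for brimonidine against control, turning without control 1. Over all alternatives the adjusted p of Col18a1 lay between 0.00172 and 0.321 for brimonidine against control and between 0.0147 and 0.298 for NE against control. Depth limited the lowest genes, Col6a4, Col6a6, Col10a1 and Col6a5, with at most 6, 20, 24 and 25 fragments in a library, while others under 1 FPKM, such as Col7a1 with between 91 and 193, were left out by the filter alone.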
